A study of Mus musculus with 4 samples.

Results

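The 10 genes described here mark Wnt and beta-catenin activity in pericentral liver and were followed across 4 liver RNA sequencing libraries. They were taken from the deposited table by gene name, and all 10 of 10 were found among 56748 genes. The tested livers came from 2 NSG mice that received JIB-04 by oral gavage in 5 doses of 55 mg/kg, 2 per week. JIB-04 blocks Jumonji enzymes, which take methyl groups off histones. The comparison livers came from 2 NSG mice that were left untreated and received no vehicle gavage, so effects of the drug and of its vehicle and handling cannot be told apart. All 4 animals carried the genotype label WT on the NSG background, an immunodeficient strain without mature B, T and natural killer cells. Age is not given in the sources used here. No animals were pooled, and replicate spread is thus variation among mice. The question addressed was what repeated JIB-04 doses do to liver transcripts, here to those of Wnt target genes.

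In the liver, endothelial cells around the central vein release Wnt ligands and R-spondins. In nearby hepatocytes these signals keep beta-catenin from being destroyed, and beta-catenin then switches on target genes together with TCF/LEF factors. The ring of pericentral hepatocytes that results takes up ammonia and makes glutamine, while hepatocytes near the portal vein make urea and glucose. Several of the targets are themselves brakes on the pathway. Whole-liver RNA holds all zones together, so the zone of a transcript cannot be read from these values.

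Values are FPKM, read fragments scaled to gene length and sequencing depth, and levels are therefore per length. FPKM times gene length was divided by its smallest value above 0 in each library, which was taken as 1 read. The quotients were whole numbers, which gave 36469514 to 43283827 reads per library. Log2 changes are JIB-04 minus untreated of log2(FPKM + 1), so changes of low genes come out too small. limma was run on genes whose FPKM averaged 1 or more across all 4 libraries, and calls needed a Benjamini-Hochberg adjusted p below 0.05. Of 10819 tested genes 232 were called (2.14%), 165 higher (1.53%) and 67 lower (0.619%) in JIB-04 liver. Higher genes made up 71.1% of calls, and 59.8% (156 higher, 105 lower) on a TPM scale computed after removing the 50 most abundant and the mitochondrial genes. It was 93.3% without JIB-04 replicate 1 (28 higher, 2 lower), 95.7% without JIB-04 replicate 2 (22 higher, 1 lower) and 100% without the filter on low values (20 higher, 0 lower). Albumin (Alb), the defining hepatocyte transcript, stood at 31689 and 22910 FPKM in JIB-04 liver and at 46658 and 46858 FPKM in untreated liver. Alb was not called (log2 change -0.80, limma adjusted p = 0.144).

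None of the 10 Wnt target genes passed the test. Slc1a2, a glutamate transporter gene, came nearest, with a mean 0.631 times the untreated level in JIB-04 liver. Sp5, a transcription factor gene of low level, had lower values in both JIB-04 than in both untreated livers. The feedback inhibitor genes Axin2, Nkd1, Rnf43 and Znrf3, the receptor gene Lgr5, the transcription factor gene Tbx3 and the secreted factor gene Lect2 differed between the groups by less than limma could call or were below the filter. The ammonia channel gene Rhbg, below the filter as well, had higher values in both JIB-04 than in both untreated livers. Of the 10 genes 7 were tested, 0 were called by limma, and 1 had an unadjusted p under 0.05 (15.5% of all tested genes did). The other tool run, voom, called 1 of the 7, in a fit that called 550 of 10819 genes where limma called 232. The median log2 change of the 7 was -0.04, beside 0.01 for all tested genes, with 3 values above 0 and 4 below. In 2 of the 7 (Slc1a2 and Znrf3) the groups did not overlap, with JIB-04 lower, against 46.4% of all tested genes in either direction, 21.8% with JIB-04 lower and 24.6% with JIB-04 higher.

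**Figure D1:**
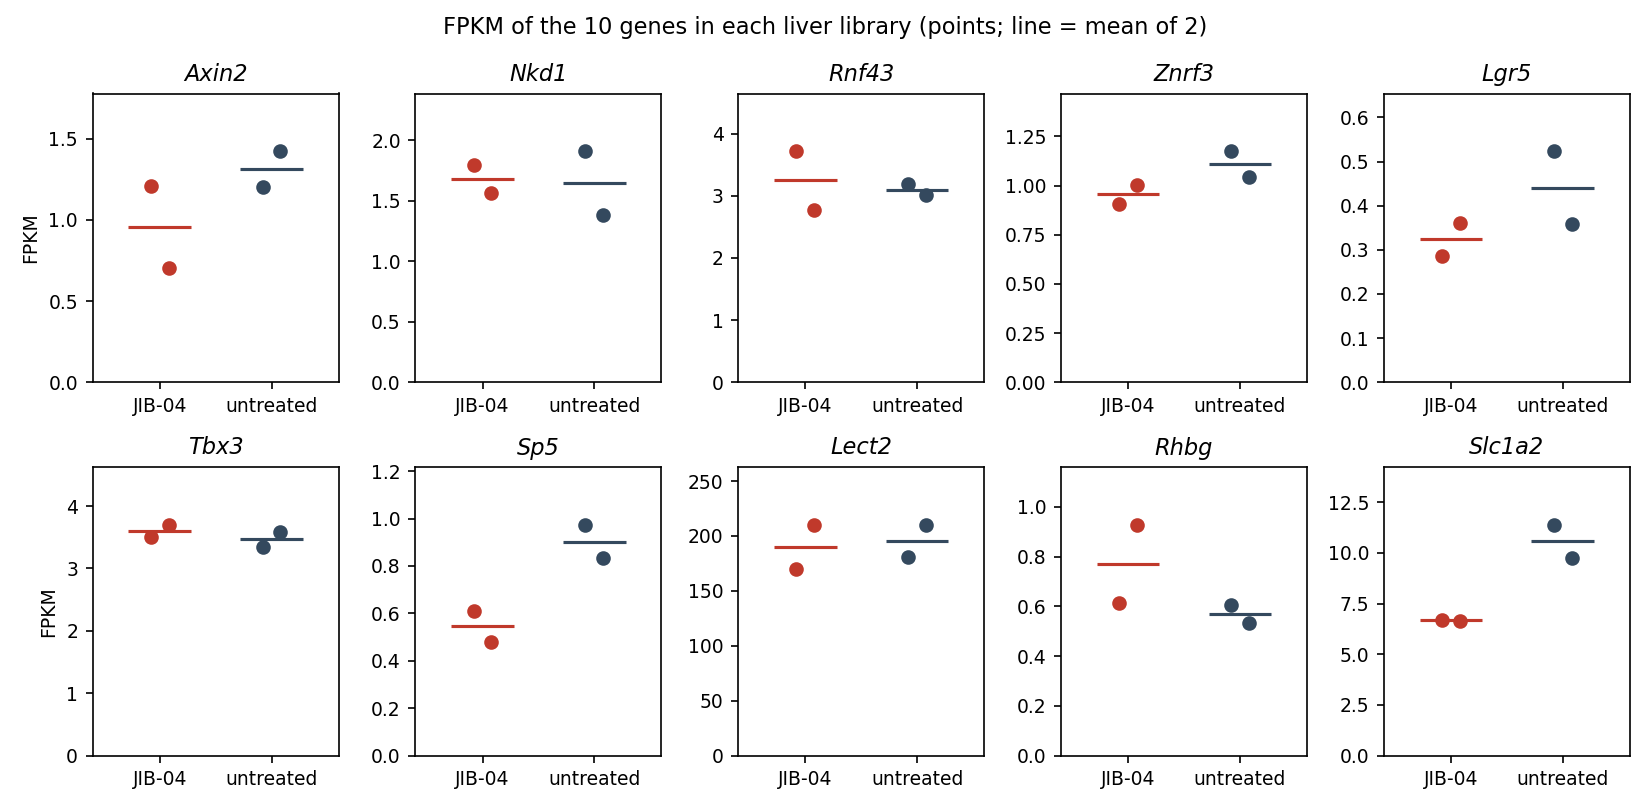
FPKM (vertical axes, each from 0) of the 10 genes in the 2 JIB-04 and the 2 untreated libraries; points are libraries and lines are group means. Slc1a2, Sp5 and Znrf3 had both JIB-04 points below both untreated points, Rhbg had both above, and the other 6 genes overlapped.

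The levels spanned a wide range in this tissue. Over all 4 libraries Lect2 was highest with a mean of 193 FPKM, followed by Slc1a2 with 8.63, Tbx3 with 3.53, Rnf43 with 3.17, Nkd1 with 1.66, Axin2 with 1.13 and Znrf3 with 1.03 FPKM. Below the filter lay Sp5 at 0.724, Rhbg at 0.670 and Lgr5 at 0.382 FPKM. Library values of Tbx3 and Rnf43 overlapped, as did those of Nkd1 and Axin2, of Axin2 and Znrf3, of Znrf3 and Sp5, and of Sp5 and Rhbg. Lect2, Slc1a2 and the pair of Tbx3 and Rnf43 were each separated from the next lower gene, and so was Rhbg from Lgr5. Just inside the filter stood Znrf3 and Axin2, and just outside it Sp5 and Rhbg. Lect2 was higher than all but 2.13% of the tested genes, whereas Znrf3 was near the floor, with 99.1% at or above it.

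The promoters of the 3 genes with a TCF/LEF motif in their window are shown because beta-catenin acts on its targets through these factors, and because Slc1a2 and Sp5 had the largest proportional reductions of the 10. RefSeq promoter windows of 300 bases, from 250 before to 50 after an annotated transcript start, were matched by symbol for 6 of the 10 genes (Axin2, Rnf43, Nkd1, Sp5, Lect2 and Slc1a2). No entry was matched for Lgr5, Znrf3, Tbx3 and Rhbg. The motif searched was CTTTG followed by A or T at each of the next 2 bases, on both strands. It was in 16.9% of 32851 promoter windows, and 1.94% held at least 2. The build of these windows is GRCm38.p6, and capitals mark the motif on either strand, 5′ to 3′ along the gene. The Sp5 window is chr2:70474673-70474972 (plus strand), that of Slc1a2 chr2:102706188-102706487 (plus strand), and that of Lect2 chr13:56548489-56548788 (minus strand).
Sp5: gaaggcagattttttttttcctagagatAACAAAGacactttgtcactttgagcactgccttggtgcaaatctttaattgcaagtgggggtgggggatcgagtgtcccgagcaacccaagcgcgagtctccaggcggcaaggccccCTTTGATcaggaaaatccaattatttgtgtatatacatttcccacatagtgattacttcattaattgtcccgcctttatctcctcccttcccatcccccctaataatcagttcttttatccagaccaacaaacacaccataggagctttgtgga
Slc1a2: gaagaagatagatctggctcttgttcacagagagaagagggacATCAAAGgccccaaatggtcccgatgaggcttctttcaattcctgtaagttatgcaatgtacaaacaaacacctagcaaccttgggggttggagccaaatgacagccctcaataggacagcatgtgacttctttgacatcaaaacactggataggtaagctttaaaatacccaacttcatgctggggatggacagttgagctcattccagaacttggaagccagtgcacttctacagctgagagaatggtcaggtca
Lect2: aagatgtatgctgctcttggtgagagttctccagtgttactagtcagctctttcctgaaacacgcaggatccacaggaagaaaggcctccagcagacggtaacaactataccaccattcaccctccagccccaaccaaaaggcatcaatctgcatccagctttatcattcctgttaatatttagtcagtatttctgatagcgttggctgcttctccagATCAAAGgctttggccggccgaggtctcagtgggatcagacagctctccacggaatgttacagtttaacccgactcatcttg
These starts are not always the outermost start of the gene. In GRCm38.p6 the Slc1a2 window belongs to an internal start, 48199 bases into the gene, while that of Sp5 lies at the gene's outer end and that of Lect2 21 bases from it. Sp5 held 2 matches, with first bases at -222 and -104 relative to the start of its window's transcript. Slc1a2 held 1 at -207 from that internal start, and Lect2 held 1 at -32. The windows of Axin2 and Nkd1, at starts 2521 and 6291 bases into their genes, and the 2 of Rnf43, at 0 and 36810 bases, held none of these letters, and a match is a description of the sequence only.

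Slc1a2 (ENSMUSG00000005089, GRCm39 chromosome 2, 102489004 to 102621129, plus strand) encodes a high-affinity glutamate transporter, best known from glia, that in liver belongs to the pericentral hepatocytes that make glutamine. It had 6.69 and 6.66 FPKM in JIB-04 livers 1 and 2, against 11.4 and 9.77 FPKM in untreated livers 1 and 2. Both JIB-04 values lay below both untreated values, and the JIB-04 libraries were nearly equal while the untreated ones differed from each other. The means were 6.67 ± 0.0218 and 10.6 ± 1.15 FPKM in JIB-04 and untreated liver (SD, n = 2 each). The log2 change was -0.59 (SE 0.126, 95% interval -0.89 to -0.29), with an unadjusted p of 0.00242 and a limma adjusted p of 0.0730, which missed the threshold. Of all tested genes 6.67% had a change at least as large in size. Slc1a2 was counted with 3765 and 3210 reads in JIB-04 and 5487 and 4845 reads in untreated liver, behind only Lect2 among the 10. Fewer pericentral cells and less RNA per cell cannot be told apart in whole liver.

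Which side of the threshold Slc1a2 fell on depended on the setting. It passed with voom on the recovered reads (adjusted p = 0.0123, in a fit that called 1.86% of genes lower), when limma was run on protein-coding genes only (0.0316), and with a mean FPKM of at least 5 (0.0495), and it did not pass in the other 13 of 16 alternatives. Its log2 change was negative in all 16, from -0.69 without untreated replicate 2 to -0.49 without untreated replicate 1. Without one library at a time the limma adjusted p lay between 0.133 and 0.318, where the spread of a group left with 1 library was taken from the group with 2. The antisense gene Gm13872 inside Slc1a2 is listed at 0 in all 4 libraries.

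**Figure D2:**
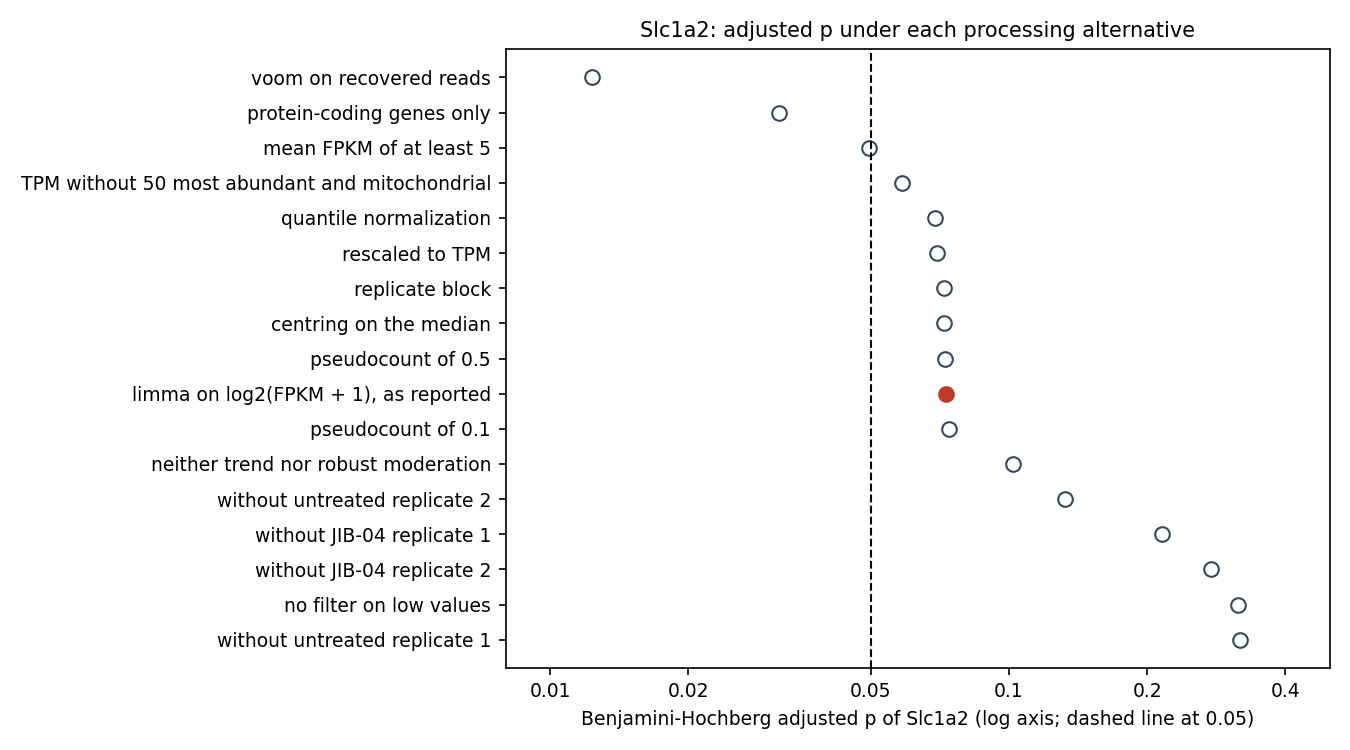
Benjamini-Hochberg adjusted p of Slc1a2 (horizontal log axis) for the reported test (filled point, 0.0730) and 16 alternatives (open points), with a dashed line at 0.05. Voom, protein-coding genes only and a mean FPKM of at least 5 lay below 0.05, and the 4 fits without 1 library were among the highest, up to 0.318.

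The other solute carrier of the group, Rhbg (ENSMUSG00000104445, chromosome 3, 88150181 to 88162016, minus strand), encodes an ammonia channel of the Rhesus family that brings ammonia into pericentral cells. It had 0.614 and 0.928 FPKM in JIB-04 livers, against 0.605 and 0.533 FPKM in untreated livers. JIB-04 liver 2 was the high one, and JIB-04 liver 1 was only just above untreated liver 1. Groups did not overlap in either direction for 39.3% of genes with a mean FPKM of 0.3 to 1. These values came from 51 and 66 reads in JIB-04 and 43 and 39 reads in untreated liver. Gm38392, a protein-coding gene on the same strand, overlaps Rhbg by 11330 bases. It held 0 and 0 reads in JIB-04 and 0 and 6 reads in untreated liver. How reads in this overlap were counted is not given in the sources used here, so the level of Rhbg may be affected. Rhbg was below the filter and was not tested. In the fit without the filter its log2 change was 0.17 (95% interval -0.21 to 0.55, limma adjusted p = 0.736). The difference was 0.04 without JIB-04 replicate 2, 0.30 without JIB-04 replicate 1, and 0.36 and 0.26 with a pseudocount of 0.1 and on a TPM scale.

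Lect2 (ENSMUSG00000021539, chromosome 13, 56690277 to 56696315, minus strand) encodes a protein secreted by hepatocytes and is a known liver target of beta-catenin. It had 169.7 and 210.04 FPKM in JIB-04 livers, against 180.5 and 210.2 FPKM in untreated livers. In each group 1 library was near 210 and the other lower, so the groups overlapped almost fully. The log2 change was -0.04 (SE 0.159, 95% interval -0.42 to 0.33, limma adjusted p = 0.939). Lect2 was the most deeply counted gene of the 10, with 6083 to 7299 reads per library. Its interval excluded a change of 1 log2 unit in either direction on that scale. The direction of its small difference turned when JIB-04 replicate 1 (0.11) or untreated replicate 2 (0.06) was left out.

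None of the genes for brakes on the pathway passed the test, and Axin2 averaged 0.727 times the untreated level in JIB-04 liver. Axin2 (ENSMUSG00000000142, chromosome 11, 108811175 to 108841609, plus strand), a scaffold of the complex that marks beta-catenin for destruction and the standard readout of Wnt activity, had 1.21 and 0.702 FPKM in JIB-04 livers, against 1.20 and 1.42 FPKM in untreated livers. JIB-04 liver 2 was low, while JIB-04 liver 1 lay between the untreated values. Read counts were 285 and 142 in JIB-04 and 243 and 296 in untreated liver. The log2 change was -0.25 (SE 0.173, 95% interval -0.67 to 0.16, limma adjusted p = 0.569), and it was -0.07 without JIB-04 replicate 2, -0.44 without JIB-04 replicate 1, -0.46 with a pseudocount of 0.1 and -0.48 with voom. Nkd1 (ENSMUSG00000031661, chromosome 8, 89247982 to 89321512, plus strand), which binds and restrains Dishevelled, had 1.79 and 1.56 FPKM in JIB-04 livers, against 1.91 and 1.38 FPKM in untreated livers. Both JIB-04 values lay between the untreated ones, and the log2 change was 0.02 (SE 0.154, 95% interval -0.34 to 0.39, limma adjusted p = 0.973).

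Rnf43 and Znrf3 encode paired membrane ubiquitin ligases that remove Frizzled receptors from the cell surface. Rnf43 (ENSMUSG00000034177, chromosome 11, 87553548 to 87626365, plus strand) had 3.72 and 2.78 FPKM in JIB-04 livers, against 3.19 and 3.01 FPKM in untreated livers. The JIB-04 values lay on either side of the untreated ones, and the log2 change was 0.04 (SE 0.149, 95% interval -0.31 to 0.40, limma adjusted p = 0.937). Znrf3 (ENSMUSG00000041961, chromosome 11, 5226324 to 5394847, minus strand) had 0.907 and 1.004 FPKM in JIB-04 livers, against 1.17 and 1.04 FPKM in untreated livers. Both JIB-04 values were the lower ones by a small margin, and the log2 change was -0.11 (SE 0.140, 95% interval -0.44 to 0.22, limma adjusted p = 0.793). It was -0.22 with voom, -0.19 with a pseudocount of 0.1 and -0.06 without untreated replicate 1. The summed level of both ligases was 4.20 ± 0.595 FPKM in JIB-04 and 4.21 ± 0.216 FPKM in untreated liver (SD, n = 2 each). A noncoding gene on the same strand within Rnf43, 1110028F11Rik, held 130 and 81 reads in JIB-04 and 145 and 108 reads in untreated liver.

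Lgr5 (ENSMUSG00000020140, chromosome 10, 115286216 to 115423685, minus strand) encodes a receptor for R-spondins, which shield Frizzled from these ligases. It had 0.286 and 0.361 FPKM in JIB-04 livers, against 0.523 and 0.358 FPKM in untreated livers. Untreated liver 1 stood above the rest, while untreated liver 2 and JIB-04 liver 2 were alike. The reads behind it were 126 and 136 in JIB-04 and 197 and 139 in untreated liver. Lgr5 was not tested, and without the filter its log2 change was -0.12 (95% interval -0.45 to 0.21, limma adjusted p = 0.775). The difference was -0.04 and -0.08 without untreated replicate 1 and JIB-04 replicate 1, -0.20 without untreated replicate 2, and -0.34, -0.19 and -0.22 with pseudocounts of 0.1 and 0.5 and on a TPM scale.

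**Figure D3:**
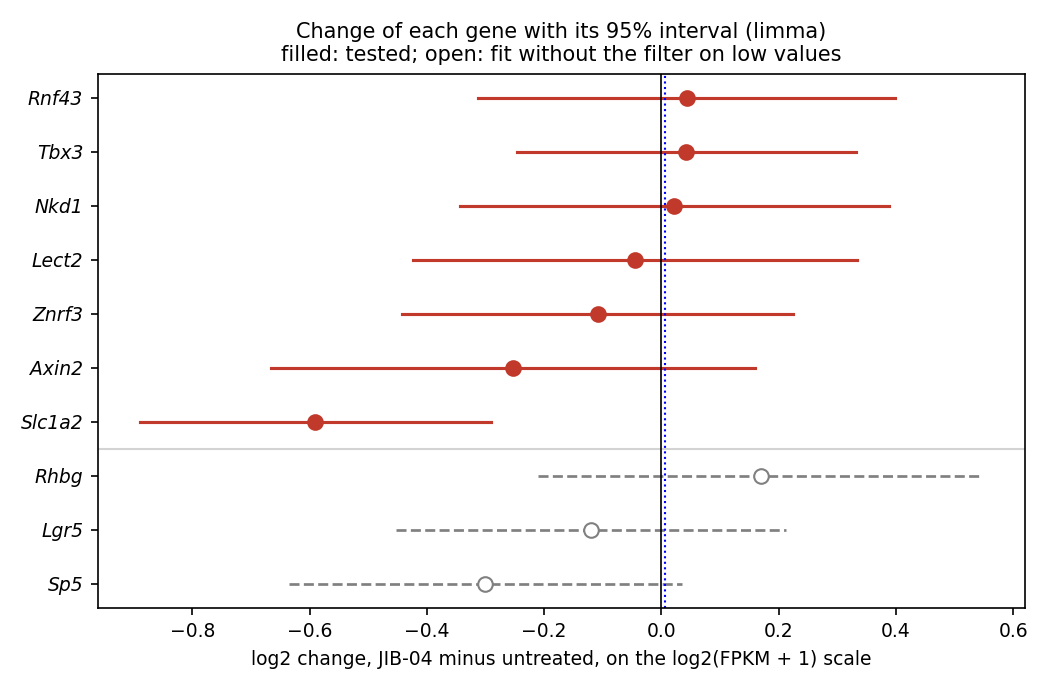
Log2 change of each gene, JIB-04 minus untreated on the log2(FPKM + 1) scale (horizontal axis), with 95% intervals; filled points are the 7 tested genes, open points the 3 genes under the filter from the fit without it, and the dotted line is the median of all tested genes (0.01). Only the interval of Slc1a2, -0.89 to -0.29, lies wholly on one side of 0.

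The 2 transcription factor genes differed in pattern. Tbx3 (ENSMUSG00000018604, chromosome 5, 119808734 to 119822789, plus strand), a T-box repressor, had 3.50 and 3.70 FPKM in JIB-04 livers, against 3.35 and 3.59 FPKM in untreated livers. The groups overlapped and spread little, and the log2 change was 0.04 (SE 0.122, 95% interval -0.25 to 0.33, limma adjusted p = 0.922). The antisense noncoding gene Tbx3os1 overlaps its start by 840 bases and held 168 and 227 reads in JIB-04 and 501 and 296 reads in untreated liver. Tbx3 itself held 813 to 994 reads per library. The strand setting of the counting is not given in the sources used here, so reads of Tbx3 and of this partner in the overlap cannot be told apart.

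Sp5 (ENSMUSG00000075304, chromosome 2, 70305267 to 70308073, plus strand) encodes a zinc finger factor and is a direct beta-catenin target in many tissues. It had 0.611 and 0.480 FPKM in JIB-04 livers, against 0.974 and 0.832 FPKM in untreated livers. Both JIB-04 values lay below both untreated values, as they did for 21.5% of the 3347 genes with a mean FPKM of 0.3 to 1. The mean in JIB-04 liver was 0.604 times that in untreated liver, on 55 and 37 reads in JIB-04 and 75 and 66 reads in untreated liver. Sp5 was below the filter and not tested. Without the filter its log2 change was -0.30 (95% interval -0.64 to 0.03, limma adjusted p = 0.620), in a fit that called only 20 of 25266 genes (0.0792%). The difference was -0.64 with a pseudocount of 0.1, the setting that shrinks low genes least, and -0.47 on a TPM scale.

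The upstream pathway showed no called gene. From 95 symbols of Wnt ligands, receptors, the beta-catenin destruction complex, nuclear factors and inhibitors, 94 were in the table, 42 were tested, and limma called 0 higher and 0 lower, against 2.14% of all tested genes in either direction. Of the 42, 8 had an unadjusted p under 0.05, or 19.0%, against 15.5% of all tested genes. Their median log2 change was -0.05, beside 0.01 for all tested genes. Ctnnb1, the beta-catenin gene, had 31.9 and 25.1 FPKM in JIB-04 livers, against 30.1 and 33.1 FPKM in untreated livers (limma adjusted p = 0.703). Tcf7l2, a TCF factor gene, had 1.55 and 2.13 FPKM in JIB-04 livers, against 1.64 and 1.86 FPKM in untreated livers (limma adjusted p = 0.941). Both genes had overlapping groups.

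Among ligands, R-spondins and their processing factors 4 of 25 were tested, all 4 with a log2 change below 0 and a median of -0.37. Rspo3, the R-spondin of the central vein, had 1.13 and 1.01 FPKM in JIB-04 livers, against 2.22 and 1.40 FPKM in untreated livers (limma adjusted p = 0.317). Porcn, the acyltransferase that makes Wnt proteins secretable, had 0.910 and 0.926 FPKM in JIB-04 livers, against 1.52 and 1.55 FPKM in untreated livers (limma adjusted p = 0.210). Wnt5b averaged 3.41 ± 0.244 and 4.56 ± 0.103 FPKM in JIB-04 and untreated liver (SD, n = 2 each; limma adjusted p = 0.247). All 3 had both JIB-04 values below both untreated values, as 21.8% of tested genes did, but they were named for the lowest p of their list. The central vein ligands Wnt2, at 1.38 and 1.40 FPKM in JIB-04 and 1.80 and 1.35 FPKM in untreated liver, and Wnt9b, at 0.299 and 0.271 FPKM in JIB-04 and 0.284 and 0.322 FPKM in untreated liver, had overlapping groups.

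In the remaining pathway lists the tested genes of lowest p went both ways. Of 9 tested receptors Lgr4, a further R-spondin receptor, averaged 9.53 ± 0.181 and 11.9 ± 0.110 FPKM in JIB-04 and untreated liver (SD, n = 2 each; limma adjusted p = 0.286), Fzd4 7.11 and 9.10 FPKM, and Fzd6 1.56 and 1.11 FPKM. Of 14 tested genes of the destruction complex and Dishevelled, 10 had a log2 change below 0 and 4 above, with a median of -0.04. The 3 of lowest p were among those above 0. Of these, the kinase genes Gsk3b and Csnk1e averaged 3.60 and 1.81 FPKM in JIB-04 liver, against 2.75 and 1.29 FPKM in untreated liver. Dvl1 averaged 32.5 and 27.3 FPKM in JIB-04 and untreated liver. Among 12 tested nuclear factors the cofactor Pygo2 averaged 7.94 and 5.54 FPKM, the corepressor Tle2 1.05 and 1.65 FPKM, and Tcf7 0.837 and 1.26 FPKM in JIB-04 and untreated liver. Of 3 tested inhibitors Notum, a Wnt deacylase, averaged 7.69 and 10.4 FPKM in JIB-04 and untreated liver (limma adjusted p = 0.285), Dkk3 0.978 and 1.10 FPKM, and Kremen1 3.33 and 3.19 FPKM. The lowest adjusted p of the 42 was 0.189, that of Pygo2.

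Pericentral metabolic genes held calls in both directions. All 12 of the list were tested, with log2 changes below 0 in 10 and above 0 in 2 (48.6% of all tested genes were below 0). Of the 12, 1 was called higher (1.53% of all tested genes were), 2 were called lower (0.619% were) and 9 did not pass. Their median log2 change was -0.29, beside 0.01 for all tested genes. Oat, ornithine aminotransferase, which feeds glutamate to glutamine synthesis, rose to 271 and 322 FPKM in JIB-04 livers, against 153 and 132 FPKM in untreated livers (log2 change 1.05, SE 0.152, limma adjusted p = 0.0248). Gulo, the last enzyme of vitamin C synthesis, fell to 106 and 103 FPKM in JIB-04 livers, against 216 and 204 FPKM in untreated livers (log2 change -1.005, SE 0.122, limma adjusted p = 0.0140). Slc13a3, a dicarboxylate transporter gene, fell to 5.74 and 6.07 FPKM in JIB-04 livers, against 15.5 and 10.7 FPKM in untreated livers (log2 change -1.01, SE 0.178, limma adjusted p = 0.0469). The groups of these 3 genes did not overlap, as for 46.4% of all tested genes in either direction, but the 3 were named because limma called them. Glul, glutamine synthetase and the classic pericentral marker, had 190.4 and 234 FPKM in JIB-04 livers, against 281 and 232 FPKM in untreated livers (limma adjusted p = 0.513). Cyp2e1, a pericentral cytochrome P450, had 2891 and 2866 FPKM in JIB-04 livers, against 3887 and 2703 FPKM in untreated livers (limma adjusted p = 0.771).

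The calls of Oat, Gulo and Slc13a3 ended without JIB-04 replicate 1 (limma adjusted p = 0.125, 0.120 and 0.224, in that order) and without JIB-04 replicate 2 (0.193, 0.143 and 0.271). That of Oat also ended without untreated replicate 2 (0.0731) and that of Slc13a3 without untreated replicate 1 (0.116). All 3 ended without the filter on low values (0.211, 0.137 and 0.295), and Slc13a3 also with quantile normalization (0.0523), centring on the median (0.0513) and neither trend nor robust moderation (0.0731). The list thus held 0 calls without the filter and without either JIB-04 library. Lower calls of the pericentral list were 3 instead of 2 with a mean FPKM of at least 5, voom, protein-coding genes only and the replicate block. They were also 3 on the TPM scale without the 50 most abundant and the mitochondrial genes. Of 16 periportal genes, the opposite zone, 0 were called by limma, and their median log2 change was -0.09. Their log2 changes were below 0 in 10 and above 0 in 6. Ass1, a urea cycle enzyme, averaged 368 ± 15.6 and 699 ± 153 FPKM in JIB-04 and untreated liver (SD, n = 2 each; limma adjusted p = 0.0612), Pigr, the receptor that carries immunoglobulin A into bile, 323 and 493 FPKM (0.0796), and Cyp2f2, a periportal P450, 364 and 229 FPKM (0.110). The periportal genes of lowest p thus had values on both sides as well. Whether Slc1a2 differs from the other members in its response was not tested.

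**Figure D4:**
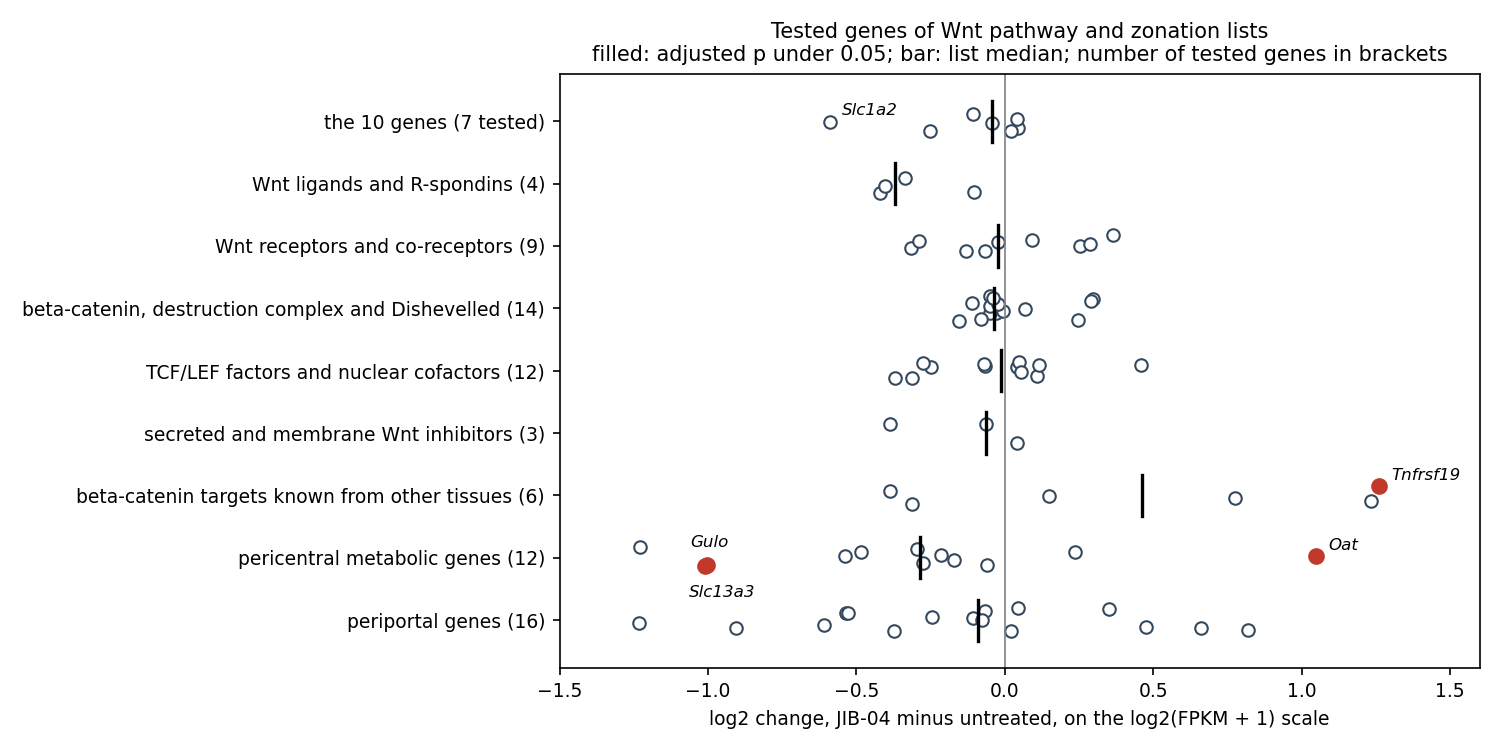
Log2 change, JIB-04 minus untreated on the log2(FPKM + 1) scale (horizontal axis), of the tested genes of each list; filled points passed an adjusted p of 0.05, open points did not, and bars are list medians. Oat and Tnfrsf19 lie near 1 and above, Gulo and Slc13a3 near -1, and Slc1a2 at -0.59 is the lowest of the 7 tested Wnt targets.

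Markers of the cells that supply or surround these signals did not pass the test in any list. Of 10 tested liver endothelial markers 0 were called by limma, with summed FPKM of 104 and 113 in JIB-04 and 125 and 103 in untreated liver. The 8 central vein endothelial markers summed to 6.57 and 6.53 FPKM in JIB-04 and to 9.56 and 7.06 FPKM in untreated liver, with 4 tested and 0 called. The 10 stellate cell markers summed to 118 and 127 FPKM in JIB-04 and to 163 and 130.1 FPKM in untreated liver, with 9 tested and 0 called. Macrophage markers summed to 355 and 446 FPKM in JIB-04 and to 477 and 411 FPKM in untreated liver, and cholangiocyte markers to 41.3 and 48.1 FPKM in JIB-04 and 44.6 and 39.0 FPKM in untreated liver, with 0 of 10 and 0 of 2 tested genes called. Of 8 tested hepatocyte markers 0 were called by limma. They summed to 42600 and 34870 FPKM in JIB-04 and to 60960 and 59490 FPKM in untreated liver, and Alb made up most of each sum. Log2 changes were below 0 in 8 of 8 hepatocyte, 10 of 10 macrophage, 8 of 9 stellate and 4 of 4 central vein markers tested. They were below 0 in 6 of 10 endothelial and 0 of 2 cholangiocyte markers, against 48.6% of all tested genes. Some genes were counted in more than 1 list. The central vein markers Wnt2 and Rspo3 are also in the ligand list, and the hepatocyte markers Hnf4a and Cps1 in the nuclear factor and periportal lists. The lowest limma adjusted p was 0.0549 among stellate and 0.0792 among hepatocyte markers. No mesothelial marker passed the filter, with sums of 2.20 and 1.55 FPKM in JIB-04 and 1.41 and 1.63 FPKM in untreated liver. In untreated liver 1 the hepatocyte, endothelial, central vein, stellate and macrophage sums were the highest of the 4. The levels of Slc1a2, Sp5, Znrf3, Lgr5, Nkd1 and Rspo3 were highest there too, and the part of these sums in the results was not tested.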

How the data were processed

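Liver RNA of 2 JIB-04 and 2 untreated NSG mice was extracted with Trizol and made into libraries by a company, per the labels' protocols. The authors deposited FPKM values per gene and library, with gene lengths and coordinates, and the submitters' processing notes name the build as GRCm39 (mm39). Of the aligner, counter, annotation release and strandedness nothing is given in the sources used here. FPKM times gene length, divided by its smallest value above 0, gave whole numbers for 100% of values above 0 in each library (tolerance 0.01). With that smallest value taken as 1 read, a single read per 1 kb equalled 0.0233 to 0.0273 FPKM. The library size this implies was 0.990 to 1.024 times the recovered reads.

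From these values log2(FPKM + 1) was tested with limma 3.58.1 in R 4.3.3 (trend and robust moderation, two-sided) on genes averaging 1 FPKM or more, adjusted over all of them, and the script was tested on simulated data. Intervals are limma's 95% intervals. With 2 libraries per group the smallest exact two-sided permutation p is 0.333, so none was used. Named were all members and, of each other pathway or zonation list, the called genes, the 3 of lowest p and 8 genes fixed by name. Members and lists were chosen with earlier results of these data known. Alternatives changed the pseudocount, filter, scaling, moderation, tool, gene set, replicate block and libraries used.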

Additional observations from a re-analysis of the deposited data

How the results depend on the processing

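The number of genes called, 232, was 20 without the filter on low values (20 higher, 0 lower), 550 with voom on recovered reads (349 higher, 201 lower), 397 with protein-coding genes only and 357 with the replicate block. Leaving out 1 library gave 23 to 156 calls: 23 without JIB-04 replicate 2, 30 without JIB-04 replicate 1, and 155 and 156 without an untreated library. Calls among the 10 Wnt targets were 1 instead of 0 in 3 alternatives, in each case Slc1a2. With a mean FPKM of at least 5 it was 1 of 2 members tested, where 227 of 5329 genes were called. With voom it was 1 of 7, where 550 of 10819 genes were called. With protein-coding genes only it was 1 of 7, where 397 of 9652 genes were called. Of 107 values of tested members under alternatives 97 kept their direction and side of the threshold, 3 (all Slc1a2) passed it and 7 changed sign. Rescaled to TPM after removing the 50 most abundant and the mitochondrial genes, Tbx3 turned to -0.0019 and Nkd1 to -0.012. Without 1 library at a time Rnf43 ran from -0.12 to 0.20, Nkd1 from -0.12 to 0.17 and Lect2 from -0.20 to 0.11. The cause was not tested.

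The labels number the samples, and whether same-numbered animals share a batch is not given in the sources used here. Same-numbered libraries' deviations from group means correlated at -0.049 across tested genes, which cannot settle whether they were paired. The replicate block changed the calls from 232 to 357 and left Slc1a2 at a limma adjusted p of 0.0721. Members below 1 FPKM rest on as few as 37 reads in a library (Sp5 in JIB-04 2), and with 2 animals per group small differences are not detectable.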

Other observations

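Target genes of beta-catenin known from other tissues, such as gut and skin, were mostly near 0 in these livers. Of 20 such genes measured, 6 passed the filter and 6 were listed at 0 in all libraries. Tnfrsf19, a member of the TNF receptor family, rose to 4.99 and 5.13 FPKM in JIB-04 livers, against 2.00 and 1.13 FPKM in untreated livers (log2 change 1.26, SE 0.181, limma adjusted p = 0.0248). The call ended without JIB-04 replicate 1 (0.171), JIB-04 replicate 2 (0.216) and untreated replicate 2 (0.0514), and without the filter on low values (0.227). Jun, a subunit of the AP-1 factor, had 16.1 and 7.81 FPKM in JIB-04 livers, against 4.40 and 4.05 FPKM in untreated livers (limma adjusted p = 0.203). Tcf7 and Notum, which feed back on the pathway, had log2 changes of -0.31 and -0.39 and did not pass the test. These alternatives for single list genes were chosen after seeing the data.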
